A study of Rattus norvegicus with 12 samples.

Results

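The genes described here encode regulators of mitochondrial and lipid metabolism: the PPAR receptors (Ppara, Ppard and Pparg), their partner RXR alpha (Rxra), the estrogen-related receptors (Esrra, Esrrb and Esrrg), the PGC-1 coactivators (Ppargc1a and Ppargc1b) and nuclear respiratory factor 1 (Nrf1). They were chosen by gene symbol, and all 10 were found among the 32883 genes of the deposited tables. Total RNA depleted of ribosomal RNA was sequenced from heart muscle cells of Sprague-Dawley rats aged 1 to 3 days, plated at 40000 cells per cm2. All cultures had first been kept with 10 µM cytosine arabinoside, which stops dividing cells, and were without it for the 24 h before treatment. Cells were treated for 24 h in 6 groups of 2 libraries each. The BET bromodomain inhibitor JQ1 (1 µM) was given with endothelin-1 (ET-1, 100 nM), with phenylephrine (PE, 10 µM) or with the acetic acid vehicle, and DMSO took the place of JQ1 in the other 3 groups, again with ET-1, PE or vehicle. Both agonists signal through G protein-coupled receptors, PE through the alpha-1 adrenergic ones, and by its title the study concerned how such receptors drive hypertrophy through the elongation factor P-TEFb. Nothing in the labels ties the 2 replicates of a group to separate cultures or litters, so every p-value below measures only the spread between these libraries, which may be technical.

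PPARs are nuclear receptors that bind fatty acids and, paired with a retinoid X receptor, switch on genes for fatty acid uptake, oxidation and storage. The estrogen-related receptors need no known hormone and act on genes of the citric acid cycle and the respiratory chain, where PGC-1 proteins dock as coactivators. Nrf1 drives genes for mitochondrial DNA upkeep, protein import and respiration, and in the heart these factors together support the shift to fatty acid use after birth.

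Promoter sequences were taken from RefSeq on the rat assembly GRCr8, a later build than the rn6 of the expression tables. Each covers 250 bases before and 50 after a transcription start, and 9 of the 10 genes were matched, with 13 promoters. Those of the 4 regulators on which the results below mainly turn are printed 5′ to 3′ on the strand of the gene, with capitals for the motif matches found.
Ppargc1a, chr14:63634058-63634357, plus strand: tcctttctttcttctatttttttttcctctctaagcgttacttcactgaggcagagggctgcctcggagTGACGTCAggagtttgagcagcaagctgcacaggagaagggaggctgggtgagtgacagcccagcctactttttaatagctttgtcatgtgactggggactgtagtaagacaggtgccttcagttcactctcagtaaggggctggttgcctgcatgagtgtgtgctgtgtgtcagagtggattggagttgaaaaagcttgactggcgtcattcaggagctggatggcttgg
Ppargc1b, chr18:57131417-57131716, minus strand: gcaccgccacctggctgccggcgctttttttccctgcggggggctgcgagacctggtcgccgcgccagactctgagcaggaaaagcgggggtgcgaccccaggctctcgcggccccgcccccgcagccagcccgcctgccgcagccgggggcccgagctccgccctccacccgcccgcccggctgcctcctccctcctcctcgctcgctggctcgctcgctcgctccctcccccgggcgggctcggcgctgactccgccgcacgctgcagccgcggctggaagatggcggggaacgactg
Ppara, chr7:118712357-118712656, plus strand: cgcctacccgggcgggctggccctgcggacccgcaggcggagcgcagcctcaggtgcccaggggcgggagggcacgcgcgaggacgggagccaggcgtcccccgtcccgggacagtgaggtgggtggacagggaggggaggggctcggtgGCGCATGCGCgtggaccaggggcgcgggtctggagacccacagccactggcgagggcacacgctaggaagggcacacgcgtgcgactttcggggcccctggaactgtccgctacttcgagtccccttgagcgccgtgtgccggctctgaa
Rxra, chr3:31387642-31387941, plus strand: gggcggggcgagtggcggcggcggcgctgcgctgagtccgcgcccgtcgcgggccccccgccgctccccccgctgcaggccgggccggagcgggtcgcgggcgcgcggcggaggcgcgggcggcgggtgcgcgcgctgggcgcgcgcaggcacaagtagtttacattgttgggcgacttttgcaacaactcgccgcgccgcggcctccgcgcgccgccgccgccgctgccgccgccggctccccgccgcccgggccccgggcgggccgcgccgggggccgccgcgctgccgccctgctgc
In the Ppargc1a promoter the capitals mark a full cAMP response element (TGACGTCA), which begins at position -181 relative to the start. In the Ppara promoter they mark a match to the NRF1 site (GCGCA and GCGC with any 1 base between them), which begins at position -100. Of the 33469 rat promoters of this length in the table, 1.83% held the first motif and 4.25% the second, on either strand. The ERR response element (TNAAGGTCA, in 1.2% of promoters) and the E-box (CACGTG, in 6.42%) gave no match in the 13 promoters, which says only that those letters are not in these windows. The motifs did not overlap, and each match is a description of letters, not of a bound factor. The 4 sequences differ widely in composition: the Ppargc1a promoter was 50.3% G or C with 4 CpG dinucleotides, while that of Rxra was 84.7% with 62, that of Ppargc1b 77.0% with 38 and that of Ppara 73.7% with 32, beside medians of 51.7% and 7 over all promoters.

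Expression is given as FPKM (fragments per kilobase of transcript, scaled to the library total), summed over a gene's transcripts and rescaled between libraries, so levels can be compared between genes on this per-length scale. Deposited coverage came to 2.341 to 2.965 Gb per library, and 12357 to 13340 genes reached 1 rescaled FPKM. The 11 cardiomyocyte markers in the tables summed to 23943 to 43274 rescaled FPKM in JQ1 libraries and 18065 to 35672 in DMSO libraries, whereas the 10 fibroblast markers summed to 112 to 667 in JQ1 libraries and 217 to 1351 in DMSO libraries. Endothelial markers summed to 1.35 to 8.03 with JQ1 and 4.41 to 15.3 with DMSO, macrophage markers to 2.82 to 12.2 and 5.84 to 20.6 in the same order, and smooth muscle markers to 388 to 803 and 430 to 874. In every group replicate 1 had the higher sum of fibroblast, endothelial, macrophage and smooth muscle markers, and replicate 2 the higher sum of cardiomyocyte markers. The 6 adipocyte markers summed to 0.695 to 4.43 in JQ1 libraries and 1.1 to 12.3 in DMSO libraries and were also higher in replicate 1 of every group, with Plin1, Lep and Retn listed at 0 in all 12 libraries.

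On the rn6 build of the deposited tables the genes span Ppara (chr7:126619196-126681752, plus strand), Ppard (chr20:7818289-7885333, plus strand), Pparg (chr4:147274107-147399380, plus strand), Ppargc1a (chr14:63095720-63187009, plus strand), Ppargc1b (chr18:56626712-56728968, minus strand), Esrra (chr1:222168730-222178725, minus strand), Esrrb (chr6:110410141-110455906, plus strand), Esrrg (chr13:106463368-106683436, plus strand), Rxra (chr3:6211789-6295908, plus strand) and Nrf1 (chr4:57378069-57445341, plus strand). Averaged over the 12 libraries, Esrra stood far above the other regulators at 82.5 rescaled FPKM. Rxra (11.4), Ppargc1a (10.7), Nrf1 (9.14), Esrrg (7.98), Ppargc1b (7.51), Ppara (6.58) and Ppard (5.13) followed, then Esrrb (1.74) and Pparg (0.405). Only the steps from Esrra to Rxra and from Esrrb to Pparg separated the ranges of neighbouring genes over all libraries; from Rxra to Ppard the genes changed places from group to group, while Esrrb came just above Pparg in all 6 groups. Rxra, for example, came next after Esrra with vehicle and DMSO, but below Nrf1, Ppargc1a and Esrrg as well with ET-1 and JQ1. Pparg, the receptor best known from fat cells, did not reach the minimum of 1 rescaled FPKM in at least 2 libraries and was not tested, so 9 of the 10 genes were. Its level was 0.22 and 0.125 rescaled FPKM with ET-1 and JQ1, 0.328 and 0.217 with PE and JQ1 and 0.285 and 0.103 with vehicle and JQ1. Its DMSO libraries had 0.794 and 0.415 with ET-1 and DMSO, 0.831 and 0.416 with PE and DMSO and 0.819 and 0.304 with vehicle and DMSO. The JQ1 library was the lower of each same-numbered pair, and replicate 1 was the higher in all 6 groups. The sums of adipocyte, fibroblast, endothelial, macrophage and smooth muscle markers were likewise higher in replicate 1 of every group, and their part in the Pparg values was not tested.

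**Figure D1:**
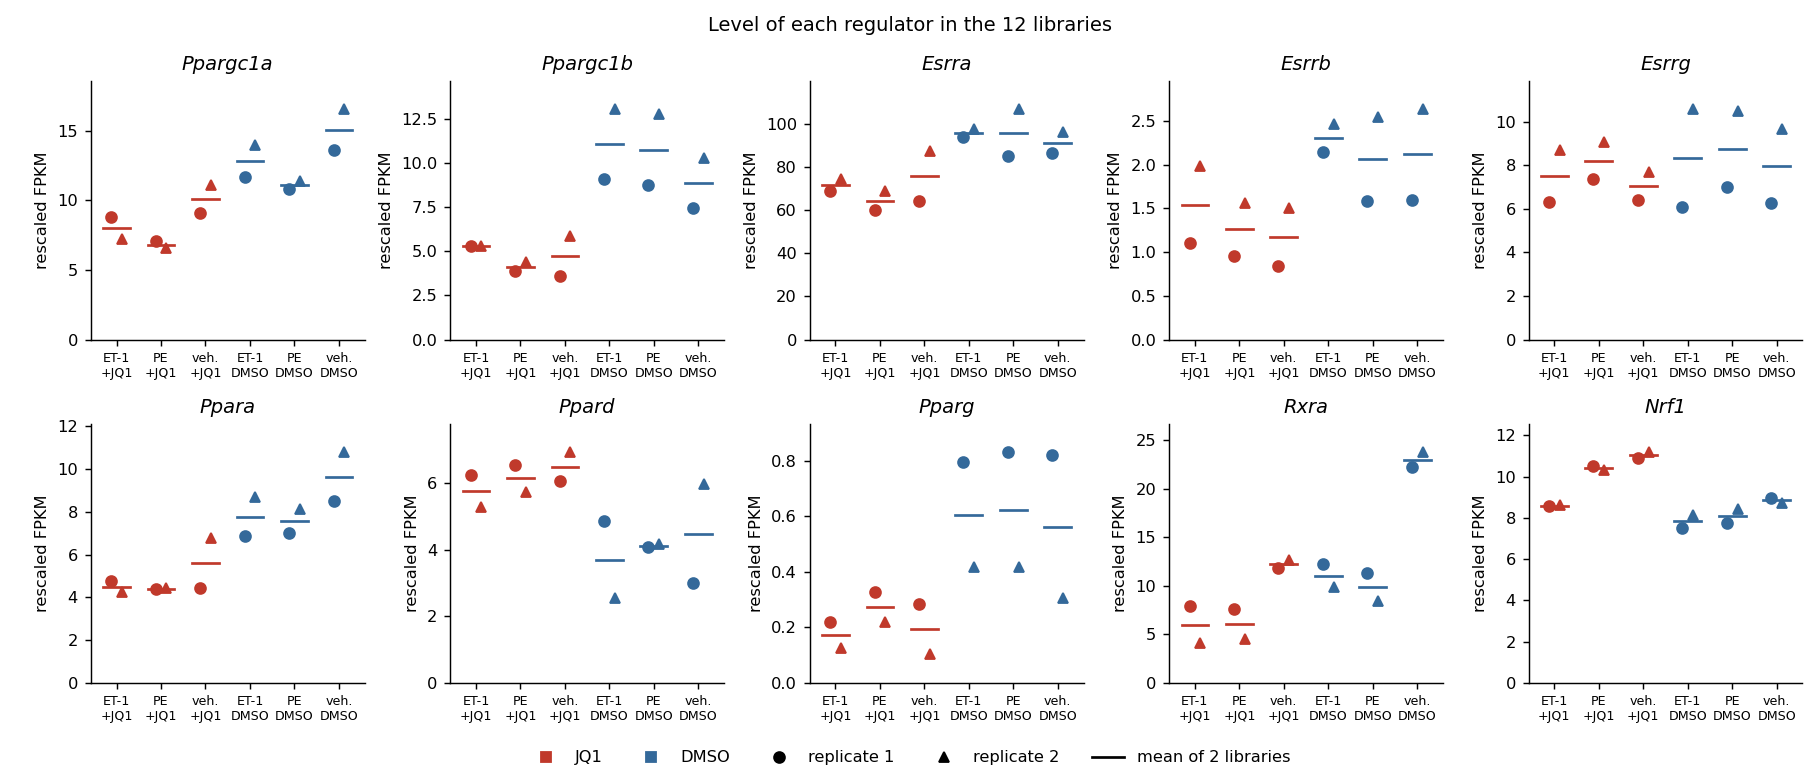
Each panel shows 1 regulator in rescaled FPKM (vertical axis, starting at 0, with its own scale) in the 6 groups, with a circle for replicate 1, a triangle for replicate 2 and a line at their mean. JQ1 groups are red and DMSO groups blue. Ppargc1b lies at 3.63 to 5.85 in JQ1 libraries and 7.49 to 13.1 in DMSO libraries, and Rxra is at its highest, 22.2 and 23.8, with vehicle and DMSO.

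The first comparison asks what blocking BET bromodomains did to these regulators. With the JQ1 effect averaged over ET-1, PE and vehicle, 6 of the 9 tested genes fell (Ppargc1a, Ppargc1b, Esrra, Esrrb, Ppara and Rxra), 2 rose (Ppard and Nrf1) and Esrrg was not called. The effect passed the test in 60.1% of all 13793 genes, 29.9% lower and 30.2% higher, so a call by itself is common in this comparison. The median log2 difference was -0.56 over the 9 regulators and 0.02 over all genes. Differences are on the log2(rescaled FPKM + 0.5) scale, JQ1 minus DMSO, which understates changes of low genes, and adjusted p-values are from limma with Benjamini-Hochberg adjustment over all genes, with a threshold of 0.05. A fit with the replicate number as a block called the same 8 genes in the same directions, beside 73.5% of all genes, 36.9% lower and 36.6% higher. In bulk RNA fewer cells of a type and less RNA per cell cannot be told apart. Fibroblast marker sums overlapped between JQ1 and DMSO libraries as given above, but these ranges mix both replicates, and replicate 1 had the higher sum in every group. With JQ1, 1 of 10 fibroblast, 1 of 4 endothelial, 2 of 4 macrophage and 4 of 7 smooth muscle markers tested fell, and with the block 10, 4, 4 and 6 did. In the same order, the median log2 differences were -0.91, -0.86, -0.76 and -0.88, and no fibroblast marker had a positive difference. Of 11 cardiomyocyte markers 3 rose and 2 fell (3 and 3 with the block), with a median of 0.04. The part of these cell types in the results was not tested.

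Both PGC-1 coactivator genes fell. Ppargc1a, which is induced in many tissues by cold, fasting and exercise, had 8.84 and 7.21 rescaled FPKM with ET-1 and JQ1, 7.09 and 6.55 with PE and JQ1 and 9.13 and 11.1 with vehicle and JQ1. Without JQ1 it had 11.7 and 14 with ET-1 and DMSO, 10.8 and 11.4 with PE and DMSO and 13.6 and 16.6 with vehicle and DMSO. The 3 JQ1 groups each lay below their DMSO counterpart in both replicates, but the 6 JQ1 libraries (6.55 to 11.1) and the 6 DMSO libraries (10.8 to 16.6) overlapped: vehicle with JQ1 reached the level of PE with DMSO. Its log2 difference was -0.62 ± 0.09 (SE; limma, adjusted p = 0.00038). Ppargc1b, the coactivator closest to it in sequence and function, had 5.33 and 5.30 rescaled FPKM with ET-1 and JQ1, 3.87 and 4.42 with PE and JQ1 and 3.63 and 5.85 with vehicle and JQ1. The DMSO values were 9.13 and 13.1 with ET-1 and DMSO, 8.75 and 12.8 with PE and DMSO and 7.49 and 10.3 with vehicle and DMSO. Here the JQ1 range, 3.63 to 5.85, lay wholly below the DMSO range, 7.49 to 13.1. The difference of -1.03 ± 0.16 (limma, adjusted p = 0.00065) was the largest among the 9 genes. The summed PGC-1 level was 11.0 to 17.0 rescaled FPKM in the JQ1 libraries and 19.6 to 27.1 in the DMSO libraries, and Ppargc1a made up 57.6 to 71.6% of it with JQ1 and 47.2 to 64.6% with DMSO.

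Of the estrogen-related receptors, 2 fell and the third was not called. Esrra encodes ERR alpha, the main ERR of adult oxidative tissue, and had 68.7 and 74.6 rescaled FPKM with ET-1 and JQ1, 59.9 and 68.8 with PE and JQ1 and 64.2 and 87.4 with vehicle and JQ1. Its DMSO libraries had 93.8 and 97.8 with ET-1 and DMSO, 84.9 and 107 with PE and DMSO and 86.5 and 96.0 with vehicle and DMSO. JQ1 was the lower in all 6 same-numbered pairs, although 1 library, replicate 2 of vehicle with JQ1 (87.4), lay above the lowest DMSO values. Replicate 2 was the higher in all 6 groups, as it was for the cardiomyocyte marker sums, and a link between these was not tested. The difference was -0.42 ± 0.10 (limma, adjusted p = 0.0057). Esrra lies on the minus strand and overlaps Trmt112 on the plus strand, at 29.5 to 46.6 rescaled FPKM, and the short AC098622.2 on its own strand. The library kit keeps strand, but how the authors' quantification used it is not stated in the labels, and reads of these genes cannot be told apart with certainty.

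Esrrb, an ERR best known from embryonic stem cells, was low: it had 1.10 and 1.98 rescaled FPKM with ET-1 and JQ1, 0.958 and 1.56 with PE and JQ1 and 0.843 and 1.51 with vehicle and JQ1. Without JQ1 it had 2.14 and 2.47 with ET-1 and DMSO, 1.58 and 2.54 with PE and DMSO and 1.60 and 2.64 with vehicle and DMSO. Its JQ1 and DMSO libraries overlapped (0.843 to 1.98 with JQ1 and 1.58 to 2.64 with DMSO), with replicate 2 the higher in every group. The difference was -0.56 ± 0.19 (limma, adjusted p = 0.036). Without the block this call was lost (adjusted p = 0.058 to 0.091, log2 difference -0.45 to -0.59) when any 1 of 7 libraries was left out: ET-1 with DMSO (either replicate), replicate 1 of each JQ1 group, and replicate 2 of PE and of vehicle with DMSO. With the block it held without any 1 library, with adjusted p = 9.3e-05 to 0.001. Esrrg encodes ERR gamma, which is rich in heart, and had 6.33 and 8.69 rescaled FPKM with ET-1 and JQ1, 7.37 and 9.05 with PE and JQ1 and 6.43 and 7.69 with vehicle and JQ1. The DMSO values were 6.08 and 10.6 with ET-1 and DMSO, 7.00 and 10.5 with PE and DMSO and 6.25 and 9.69 with vehicle and DMSO. The groups overlapped throughout, and replicate 2 was the higher in all 6 groups. JQ1 was the lower in 3 of 6 pairs, those of replicate 2, and the higher in those of replicate 1. The difference was -0.11 ± 0.18 with a 95% interval of -0.53 to 0.31 (limma, adjusted p = 0.64). With the block the interval was -0.27 to 0.06 (limma, adjusted p = 0.22). Esrra made up 86.6 to 90.5% of the summed ERR level in the JQ1 libraries and 88.2 to 91.9% in the DMSO libraries.

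Ppara and Ppard moved in opposite directions. Ppara, the receptor that drives fatty acid oxidation in heart and liver, had 4.76 and 4.24 rescaled FPKM with ET-1 and JQ1, 4.37 and 4.41 with PE and JQ1 and 4.41 and 6.75 with vehicle and JQ1. Its DMSO libraries had 6.85 and 8.70 with ET-1 and DMSO, 6.99 and 8.11 with PE and DMSO and 8.50 and 10.8 with vehicle and DMSO. All 6 JQ1 libraries (4.24 to 6.75) lay below all 6 DMSO libraries (6.85 to 10.8), with a difference of -0.73 ± 0.12 (limma, adjusted p = 0.00085). Ranges that did not overlap were found for Ppara and Ppargc1b, 2 of the 9 tested regulators, beside 36.4% of all genes.

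Ppard, a PPAR present in most tissues, had 6.27 and 5.29 rescaled FPKM with ET-1 and JQ1, 6.57 and 5.73 with PE and JQ1 and 6.06 and 6.95 with vehicle and JQ1. Without JQ1 it had 4.86 and 2.56 with ET-1 and DMSO, 4.09 and 4.17 with PE and DMSO and 3.01 and 5.97 with vehicle and DMSO. JQ1 was the higher in all 6 pairs, and the difference was 0.57 ± 0.18 (limma, adjusted p = 0.027), but its size depends on how reads were assigned to transcripts. In 2 DMSO libraries, replicate 2 of ET-1 and replicate 1 of vehicle, the 3262-nt transcript was listed at 0 and the 5550-nt transcript held the whole level, while in the other 10 libraries the shorter form held 84.6 to 98.9%. The same bases spread over a longer form give a lower FPKM. When the bases of both forms were summed and divided by the length of the longer form, the difference was 0.32 ± 0.08 (limma, adjusted p = 0.0069). This alternative was chosen after seeing the data. Ppard then had 3.17 to 4.13 in JQ1 libraries and 2.47 to 3.57 in DMSO libraries. On the summed FPKM the call was lost on the deposited scale (0.49, adjusted p = 0.067) and when any 1 of 7 libraries was left out, without the block (0.42 to 0.57, adjusted p = 0.051 to 0.065): replicate 1 of ET-1 with JQ1, of PE with JQ1, of PE with DMSO and of vehicle with DMSO, and replicate 2 of vehicle with JQ1, of ET-1 with DMSO and of PE with DMSO. With the block it was also lost without any 1 of 5 libraries (adjusted p up to 0.062): replicate 1 of ET-1 with JQ1, of PE with JQ1 and of PE with DMSO, and replicate 2 of vehicle with JQ1 and of ET-1 with DMSO. On summed FPKM, the sum of the 3 PPARs was 9.66 to 13.8 rescaled FPKM in JQ1 libraries and 11.7 to 17.1 in DMSO libraries, and within it the Ppard share was 50.3 to 58.3% in JQ1 libraries and 21.9 to 38.9% in DMSO libraries. This share depends on the length used. In all 12 libraries Ppard lay below Ppara when bases were divided by the longest form, 5550 nt for Ppard and 2021 nt for Ppara. In replicate 1 of ET-1 with JQ1, for example, they had 3.78 and 4.76, although the 3262-nt form held 96.4% of Ppard there. In the 2 DMSO libraries with that form at 0, the share also rests on the transcript assignment.

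Rxra encodes RXR alpha, the partner with which PPARs bind DNA. It had 7.88 and 4.11 rescaled FPKM with ET-1 and JQ1, 7.64 and 4.52 with PE and JQ1 and 11.8 and 12.7 with vehicle and JQ1. The DMSO values were 12.2 and 9.90 with ET-1 and DMSO, 11.3 and 8.46 with PE and DMSO and 22.2 and 23.8 with vehicle and DMSO. Within each treatment both JQ1 libraries lay below both DMSO libraries. Over all treatments the ranges overlapped (4.11 to 12.7 with JQ1 and 8.46 to 23.8 with DMSO), with vehicle and JQ1 near ET-1 and PE with DMSO. The difference was -0.82 ± 0.18 (limma, adjusted p = 0.0044). Nrf1 rose slightly: it had 8.59 and 8.61 rescaled FPKM with ET-1 and JQ1, 10.5 and 10.3 with PE and JQ1 and 10.9 and 11.2 with vehicle and JQ1. Its DMSO libraries had 7.49 and 8.16 with ET-1 and DMSO, 7.73 and 8.45 with PE and DMSO and 8.95 and 8.74 with vehicle and DMSO. JQ1 was the higher in all 6 pairs and replicates differed little, giving 0.26 ± 0.04 (limma, adjusted p = 0.0011).

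**Figure D2:**
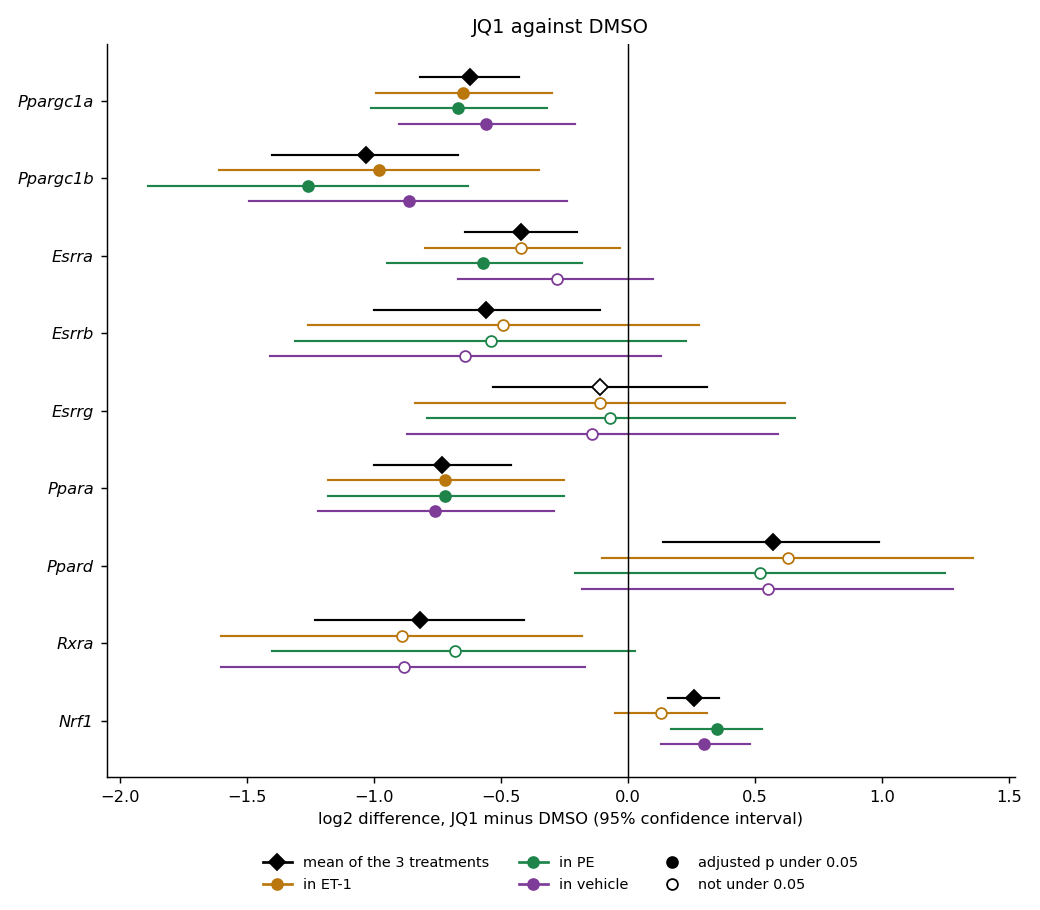
Log2 differences, JQ1 minus DMSO (horizontal axis), for the 9 tested regulators, as the mean of the 3 treatments (black diamond) and in ET-1, PE and vehicle. Lines are 95% confidence intervals and filled symbols mark an adjusted p under 0.05, both from the fit without the block. The means run from -1.03 for Ppargc1b to 0.57 for Ppard, and Esrrg, at -0.11, is the only mean with an open symbol.

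Taken treatment by treatment, fewer genes passed, each value resting on 2 libraries against 2. In ET-1-treated cells 3 of the 9 fell with JQ1 (Ppara, Ppargc1a and Ppargc1b; 37.5% of all genes were called), and 6 with the block, which added Esrra, Esrrb and Rxra (56.9%). In PE-treated cells Ppara, Ppargc1a, Ppargc1b and Esrra fell and Nrf1 rose (36.5% of all genes), and the block added Esrrb and Rxra to make 7 (56.4%). In vehicle-treated cells Ppara, Ppargc1a and Ppargc1b fell and Nrf1 rose (32.0% of all genes), and the block added Esrra, Esrrb and Rxra, again to make 7 (52.8%). Ppargc1b differed by -0.98 ± 0.27 with ET-1, -1.26 ± 0.27 with PE and -0.86 ± 0.27 with vehicle (limma, adjusted p = 0.024, 0.0084 and 0.043). Ppara differed by -0.72 ± 0.20, -0.72 ± 0.20 and -0.76 ± 0.20 (adjusted p = 0.025, 0.025 and 0.023), in the same order.

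Without the rescaling, Nrf1 was no longer called with PE (0.30, adjusted p = 0.073) or with vehicle (0.21, adjusted p = 0.19), while Esrra was called with ET-1 (-0.52, adjusted p = 0.011) and with vehicle (-0.38, adjusted p = 0.044). The single-treatment calls rested on few libraries. The share of all genes called with a library left out is not given here, so the counts that follow have no such share beside them. Without the block, leaving out 1 of the 4 compared libraries left 0 to 3 called regulators with ET-1, 1 to 3 with PE and 0 to 3 with vehicle. The count of 0 came without replicate 2 of ET-1 with JQ1 or of ET-1 with DMSO, and without replicate 1 of vehicle with JQ1 or replicate 2 of vehicle with DMSO. With the block, 4 to 5, 6 to 7 and 4 to 7 were called. Rxra differed by -0.89 ± 0.31 with ET-1, -0.68 ± 0.31 with PE and -0.88 ± 0.31 with vehicle (limma, adjusted p = 0.054, 0.12 and 0.06, and 0.012, 0.035 and 0.013 with the block). With the block, its call in each treatment was lost without some single libraries, at adjusted p up to 0.095, 0.22 and 0.11.

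Whether the JQ1 effect itself differed between an agonist and vehicle was tested as an interaction. None of the 9 regulators passed in either comparison, none had an unadjusted p under 0.05, and none passed with the block (limma, adjusted p = 1 throughout without the block and 0.45 to 1 with it). Of all genes, 0% passed in each without the block, with 616 for ET-1 and 717 for PE at an unadjusted p under 0.05, and 0.0363% and 0.0725% passed with the block. The intervals were wide. For Ppargc1b with PE the difference between the effects was -0.40, with a 95% interval of -1.28 to 0.49 without the block and -0.88 to 0.09 with it. For Rxra with ET-1 it was -0.00, with intervals of -1.01 to 1.00 and -0.76 to 0.76 in the same order.

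The second question is what the hypertrophic agonists did to the same genes. Without the block, 0 of the 9 regulators passed for ET-1 against vehicle (2.87% of all genes did) or for PE against vehicle (6.07%), both without JQ1, and 0 passed with JQ1 present (1.36% for ET-1 and 0.718% for PE). At an unadjusted p under 0.05 there were 1 and 2 regulators without JQ1, and 2 and 2 with it. Of all 13793 genes, 2800 and 3191 reached this without JQ1, and 2355 and 2246 with it, so such a p-value by itself is common here. With the block, Rxra fell in each of the 4 comparisons, joined by Nrf1 for ET-1 with JQ1 and by Ppargc1a for PE with JQ1, so 1, 1, 2 and 2 regulators passed (18.4%, 24.0%, 11.6% and 12.1% of all genes). The ET-1 and PE comparisons share their vehicle libraries and are therefore not independent of each other.

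The Rxra values given above put all 4 libraries with an agonist and DMSO, at 8.46 to 12.2 rescaled FPKM, below both vehicle libraries with DMSO, at 22.2 and 23.8. With JQ1 the 4 agonist libraries held 4.11 to 7.88 and the vehicle libraries 11.8 and 12.7. The share of all genes whose agonist and vehicle libraries separate in this way was not counted. The log2 difference for ET-1 was -1.03 ± 0.31 with JQ1 and -1.03 ± 0.31 without it (limma, adjusted p = 0.15 and 0.12, and 0.031 and 0.022 with the block). For PE it was -0.99 ± 0.31 with JQ1 and -1.19 ± 0.31 without it (adjusted p = 0.17 and 0.061, and 0.034 and 0.011 with the block). Even with the block, leaving out 1 library ended the Rxra call in some fits of every comparison. For ET-1 the call was lost without replicate 2 of either group with JQ1 (adjusted p up to 0.23), and without either ET-1 library or replicate 2 of vehicle in DMSO (up to 0.16). For PE it was lost without either PE library or replicate 2 of vehicle, with JQ1 (up to 0.24) and with DMSO (up to 0.084). Fibroblast marker sums, at 217 to 973 in the agonist libraries and 332 to 1351 in the vehicle libraries with DMSO, overlapped, with replicate 1 the higher in every group. With the block, 7 of those 10 genes fell for ET-1 and 4 for PE. Their part in the Rxra values was not tested.

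Same-numbered pairs of agonist and vehicle share each vehicle library between ET-1 and PE, and such counts were not taken over all genes. Ppargc1a was the lower with agonist in all 8 of these pairs. For PE its difference was -0.53 ± 0.15 with JQ1 and -0.42 ± 0.15 without it (limma, adjusted p = 0.14 in both, and 0.048 and 0.064 with the block). For ET-1 the differences were -0.32 ± 0.15 and -0.23 ± 0.15 (adjusted p = 0.33 and 0.43). The 1 call, for PE with JQ1 and the block, was lost when any 1 of its 4 libraries was left out, at adjusted p = 0.069 to 0.3. Nrf1 was also the lower with agonist in all 8 pairs. It differed by -0.34 ± 0.08 for ET-1 with JQ1 (limma, adjusted p = 0.078, and 0.019 with the block). Without replicate 2 of ET-1 or either vehicle library it was no longer called with the block. On bases per gene the Nrf1 difference was smaller, at -0.25 (limma, adjusted p = 0.13, and 0.042 with the block).

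The other regulators were not called for either agonist when all libraries were used, with or without the block. Ppara differed by -0.30 ± 0.20 for ET-1 and -0.33 ± 0.20 for PE in DMSO, with 95% intervals of -0.76 to 0.17 and -0.80 to 0.14. With the block these intervals were -0.65 to 0.06 and -0.69 to 0.03. Ppargc1b differed by 0.30 ± 0.27 and 0.25 ± 0.27, Esrra by 0.07 ± 0.17 and 0.07 ± 0.17, and Esrrg by 0.04 ± 0.32 and 0.13 ± 0.32. Esrrb differed by 0.13 ± 0.33 and -0.03 ± 0.33, and Ppard, subject to the transcript assignment described above, by -0.23 ± 0.32 and -0.04 ± 0.32. PE set against ET-1 without JQ1 called none of the 9 (0.00725% of all genes in either fit, 0 regulators and 206 genes at an unadjusted p under 0.05). The widest interval there without the block, for Esrrb, was -0.93 to 0.61 (limma). With the block the Esrrb interval was -0.45 to 0.13, and the widest, for Ppard, was -0.55 to 0.93.

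**Figure D3:**
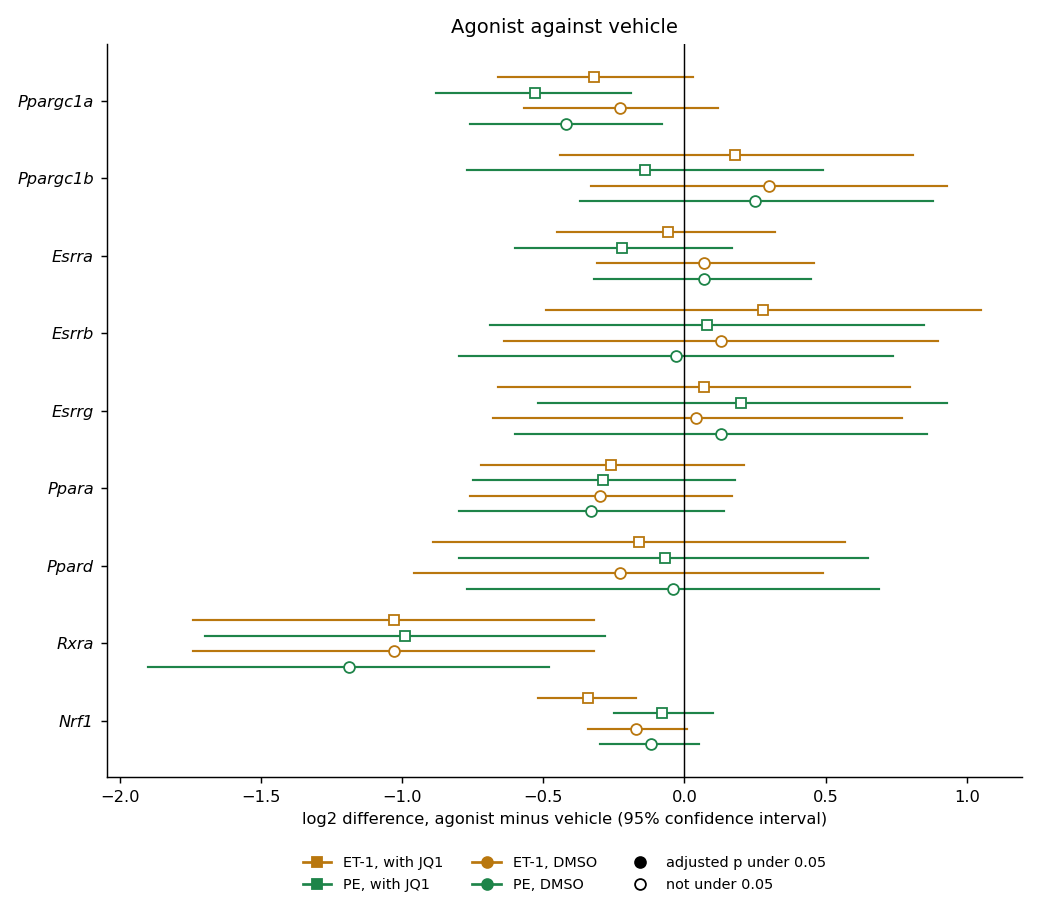
Log2 differences, agonist minus vehicle (horizontal axis), for the 9 tested regulators, with ET-1 in orange and PE in green, squares for cells with JQ1 and circles for cells with DMSO, and 95% confidence intervals from the fit without the block. No symbol is filled, since no adjusted p was under 0.05, and the 4 Rxra values, -0.99 to -1.19, lie farthest from 0.

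Of the 3 retinoid X receptors, Rxra and Rxrg fell with JQ1 over the 3 treatments and Rxrb rose. Rxrg, which encodes the RXR gamma found in striated muscle and brain, had 0.116 and 0.189 rescaled FPKM with ET-1 and JQ1, 0.371 and 0.533 with PE and JQ1 and 0.864 and 2.25 with vehicle and JQ1. Without JQ1 it had 5.60 and 5.71 with ET-1 and DMSO, 5.62 and 6.02 with PE and DMSO and 13.7 and 20.2 with vehicle and DMSO. It fell by 3.04 on the log2 scale with JQ1 over the 3 treatments (SE 0.18; limma, adjusted p = 5.5e-06) and, without JQ1, by 1.48 with ET-1 and by 1.44 with PE (SE 0.31 each; adjusted p = 0.048 and 0.036). Rxrb, the form present in most tissues, had 18.5 and 20 rescaled FPKM with ET-1 and JQ1, 14.3 and 18.7 with PE and JQ1 and 17.4 and 19.8 with vehicle and JQ1. The DMSO values were 15.5 and 12.5 with ET-1 and DMSO, 11.1 and 11.2 with PE and DMSO and 17.9 and 18.1 with vehicle and DMSO. Rxrb rose with JQ1 by 0.34 ± 0.08 over the 3 treatments (limma, adjusted p = 0.0071). With ET-1 and with PE the JQ1 library was the higher of each same-numbered pair. With vehicle it was the lower in replicate 1 (17.4 and 17.9) and the higher in replicate 2 (19.8 and 18.1). Rxrb fell with PE by 0.67 without JQ1 (SE 0.14, limma, adjusted p = 0.036). The agonist calls of both genes were lost without any 1 of the compared libraries in the fit without the block (adjusted p = 0.071 to 0.26 for Rxrg and 0.12 to 0.21 for Rxrb). With the block, Rxrg was lost only without replicate 2 of ET-1 (0.054) or of PE (0.052), and Rxrb without either PE library or replicate 2 of vehicle (up to 0.099). Summed over the family, RXR level was 22.3 to 34.7 rescaled FPKM in JQ1 libraries, 25.7 to 33.3 with an agonist and DMSO, and 53.8 and 62.1 with vehicle and DMSO. Rxrb made up 57.0 to 82.3% of that sum with JQ1, and 29.1 and 33.2% with vehicle and DMSO.

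**Figure D4:**
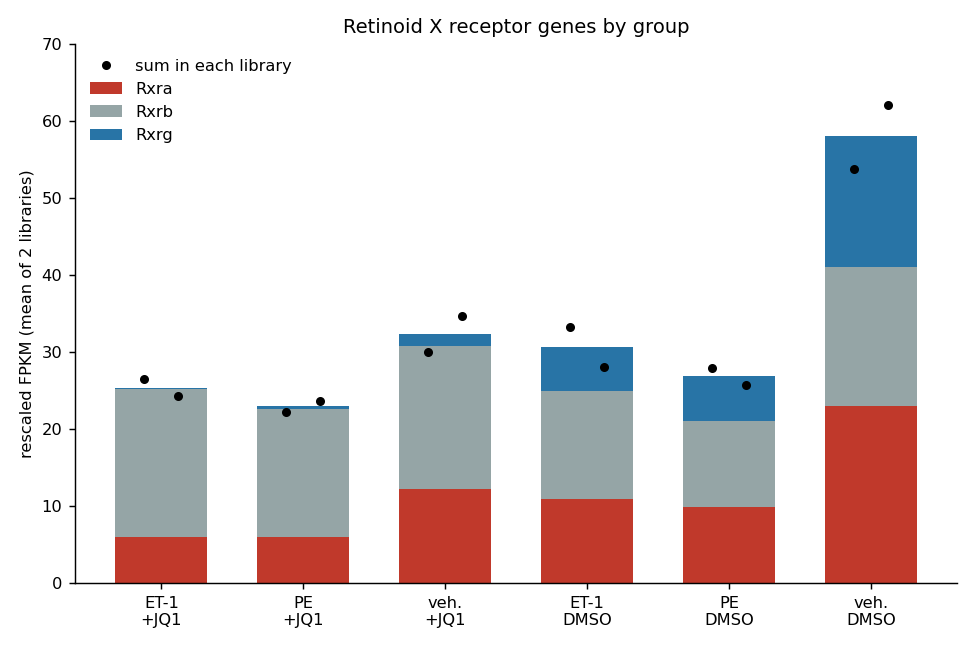
Stacked bars give the mean rescaled FPKM (vertical axis, from 0) of Rxra, Rxrb and Rxrg in the 6 groups, and points give the family sum in each library. The sum is highest with vehicle and DMSO, at 53.8 and 62.1, and Rxrg is hardly visible in the ET-1 and PE groups with JQ1.

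Genes of the same pathways were taken from 6 lists, chosen, like the regulators, with earlier results of these data known. Their counts are to be read beside the 29.9% of all genes that fell and 30.2% that rose with JQ1 over the 3 treatments (36.9% and 36.6% with the block). Among the fatty acid and lipid genes that PPARs are known to act on, 9 of 24 tested fell with JQ1 over the 3 treatments and 3 rose, with a median of -0.35, and 13 fell with the block. Cpt1b, the muscle enzyme that admits fatty acids to mitochondria, differed by -2.35 ± 0.16, Plin2, a lipid droplet coat protein, by -1.92 ± 0.35, and Acot2, a mitochondrial thioesterase, by -1.89 ± 0.09 (limma, adjusted p = 1.1e-05, 0.0017 and 3.1e-06). The 3 that rose, Acadvl (0.46), Hadha (0.18) and Hadhb (0.46), encode mitochondrial enzymes of long-chain fatty acid oxidation and were named after their values were seen. Of 26 respiration and energy genes that ERRs and PGC-1 act on, 17 fell and 1, Sod2, rose, with a median of -0.48. Perm1, a muscle regulator induced by PGC-1 and ERR, differed by -3.15 ± 0.17, Ckmt2, the mitochondrial creatine kinase of muscle, by -2.12 ± 0.18, and Cox7a1, a heart and muscle subunit of cytochrome oxidase, by -1.17 ± 0.20 (adjusted p = 4.5e-06, 2.8e-05 and 0.0011). Perm1 had 0.523 to 1.68 rescaled FPKM in JQ1 libraries and 8.56 to 18.7 in DMSO libraries.

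The mitochondrial biogenesis genes that Nrf1 acts on were divided, with 8 of 18 higher and 4 lower with JQ1 and a median of 0.06. Polg and Polg2, the 2 subunits of the mitochondrial DNA polymerase, rose by 0.96 ± 0.05 and 0.67 ± 0.07, while Lrpprc, which stabilizes mitochondrial mRNA, fell by 0.53 (SE 0.07; limma, adjusted p = 3.1e-06, 9.4e-05 and 0.00022). Of 16 coactivators and corepressors, 3 rose and 4 fell (7 and 5 with the block; median 0.11). Nrip1, a corepressor of nuclear receptors, rose by 0.49 ± 0.07, and Prdm16, a partner of PGC-1 alpha in brown fat, and Tbl1xr1, of the corepressor complex, fell by 0.57 (SE 0.18) and by 0.47 (SE 0.08; adjusted p = 0.00035, 0.026 and 0.0011). The Prdm16 call was lost without any 1 of 5 libraries in the fit without the block, replicate 1 of vehicle with JQ1 and replicate 2 of ET-1 with JQ1 and of each DMSO group (adjusted p up to 0.067). Of 23 regulators of PGC-1, 10 rose and 6 fell (11 and 7 with the block, median 0.17). Foxo3, a transcription factor of the FoxO family, differed by 1.04 ± 0.05 (limma, adjusted p = 2e-06). Prkag2, a regulatory subunit of AMP kinase, differed by -1.33 ± 0.08 and Sirt3, a mitochondrial deacylase, by -0.71 ± 0.08 (limma, adjusted p = 7.4e-06 and 0.00018). Of 20 other nuclear receptors, 5 rose and 7 fell (median -0.13), among them Rarg, a retinoic acid receptor, at -1.22 ± 0.21 (adjusted p = 0.0012).

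**Figure D5:**
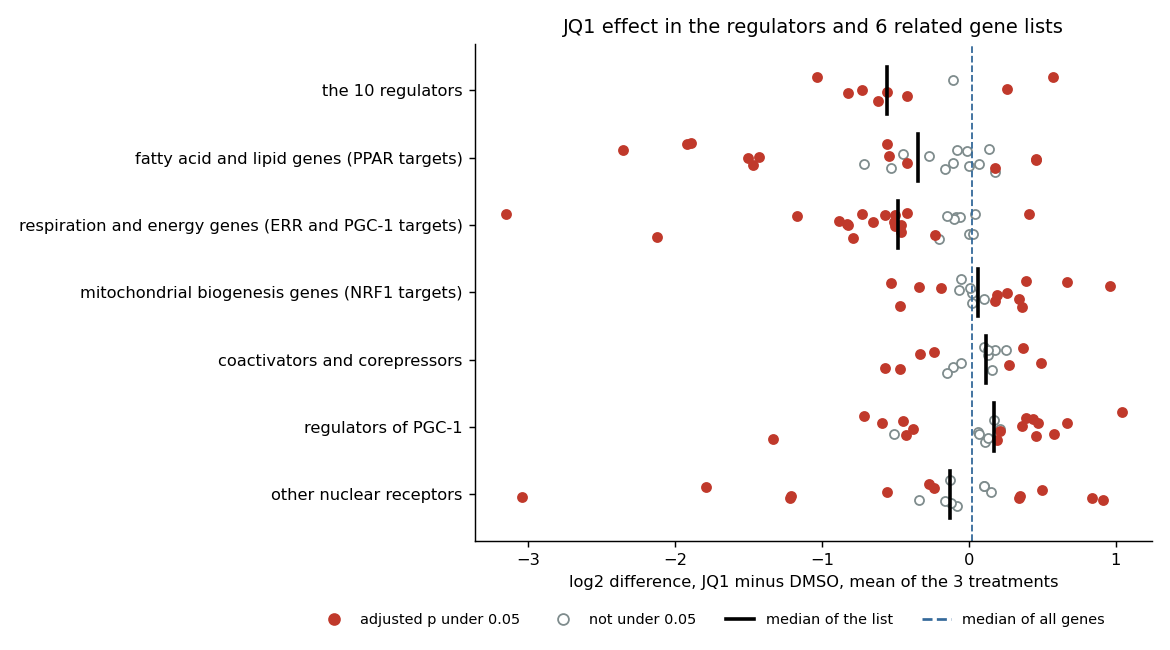
Each row holds the tested genes of 1 list at their log2 difference, JQ1 minus DMSO, over the 3 treatments (horizontal axis), with filled points where the adjusted p was under 0.05, a black bar at the median of the list and a dashed line at the median of all genes. The bars of the regulators (-0.56), the respiration genes (-0.48) and the lipid genes (-0.35) lie left of the line at 0.02, and that of the regulators of PGC-1 (0.17) to its right.

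Without JQ1, of all 13793 genes 216 were lower with ET-1 (1311 with the block) and 439 with PE (1687), and 2.87% and 6.07% were called in either direction (18.4% and 24.0% with the block). ET-1 lowered 1 of 24 lipid genes (8 with the block), 0 of 26 respiration genes (1 with the block, and 1 raised), 0 of 18 biogenesis genes (1, and 2 raised), 1 of 16 coactivators and corepressors (5), 1 of 23 regulators of PGC-1 (5, and 1 raised) and 3 of 20 nuclear receptors (6), and raised none without it. Among the called genes were Plin5, a droplet protein of oxidative tissue (-1.28 ± 0.24), the coactivator Ncoa2 (-0.74 ± 0.12), Foxo3 (-0.53 ± 0.08), Rxrg and Nr1d2, a clock receptor (-0.68 ± 0.13; limma, adjusted p = 0.035, 0.026, 0.022, 0.048 and 0.041). PE lowered 2 lipid genes (6 with the block, and 1 raised), 1 biogenesis gene (3, and 1 raised), 1 coactivator (5), 3 regulators of PGC-1 (4, and 2 raised) and 3 nuclear receptors (7, and 2 raised). Among them were Plin5 (-1.26 ± 0.24), Ech1, a fatty acid oxidation enzyme (-1.54 ± 0.32), Polrmt, the mitochondrial RNA polymerase (-0.56 ± 0.10), Ncoa2 (-0.83 ± 0.12) and Foxo3 (-0.49 ± 0.08), with adjusted p = 0.026, 0.034, 0.024, 0.013 and 0.017. Klf15, a regulator of cardiac lipid metabolism, and Foxo1, of the FoxO family, also fell, by 0.88 and 0.68 (SE 0.18 and 0.15; adjusted p = 0.032 and 0.04). Cox7a1 rose with PE by 1.44 ± 0.34 (adjusted p = 0.048), the only respiration gene called without the block (2 rose with it). Each of these agonist calls depended on single libraries: when any 1 of the 4 compared libraries was left out without the block, none of the 5 genes named for ET-1 was called (adjusted p up to 0.26), and of the 10 for PE only Ncoa2 was, in 1 fit of 4 (up to 0.24). With the block, Foxo3 was called in every such fit for ET-1, and Foxo3, Ncoa2 and Cox7a1 for PE, while the others named were lost without 1 or more libraries (adjusted p up to 0.065 for ET-1 and 0.1 for PE). On FPKM as deposited, Ncoa2 for ET-1 and Ech1, Cox7a1, Klf15 and Foxo1 for PE were not called (adjusted p = 0.058, 0.054, 0.11, 0.056 and 0.056).

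Across the 12 libraries, the levels of several regulators ran together on the log2 scale. Pearson's r was 0.95 for Ppara with Ppargc1a, 0.94 for Ppargc1b with Esrra, 0.88 for Ppara with Esrra and 0.85 for Ppargc1a with Rxra, but 0.40 for Ppargc1b with Rxra and -0.72 for Ppargc1b with Nrf1. These values describe 12 libraries that share groups, replicate numbers and the JQ1 contrast. The genes outside the set whose patterns were most like a regulator, among those averaging at least 5 rescaled FPKM, were Hcn4 for Ppargc1a (r = 0.984), Synj2 for Ppargc1b (0.984), Atp5po for Esrra (0.984), Atp5f1e for Esrrb (0.968), E2f6 for Esrrg (0.943), Fam160b2 for Ppara (0.983), Kdm4b for Ppard (0.885), Polr2m for Rxra (0.988) and Cul3 for Nrf1 (0.950). The next in each case were Lamb2 (0.971), Fam104a (0.982), Zcchc3 (0.974), RGD1565033 (0.967), Bmpr1a (0.935), Ubac2 (0.974), Dgcr6 (0.877), Gstm1 (0.986) and Rnf114 (0.938), in the same order of regulators.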

How the data were processed

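The deposited transcript tables give FPKM and mean coverage (signal) per base, per the file headers, and the authors had normalized FPKM for length and library total. Per the submitters' processing notes, the tools were StringTie 1.3.4d, STAR 2.7.1a, Trim Galore 0.6.0 and DESeq2 1.24.0, with rn6 and Rnor_6.0 as builds; no label states the read length. FPKM was summed by gene, and each library was divided by a median-of-ratios factor (0.873 to 1.127) computed on the 15551 genes detected in every library, because genes under 400 nt took 53.3 to 69.8% of FPKM. The 13793 genes reaching 1 rescaled FPKM in 2 or more libraries were tested on log2(value + 0.5) with limma 3.58.1 (trend and robust) in R 4.3.3, with 6 group means, Benjamini-Hochberg adjustment within each of 11 comparisons and a threshold of 0.05. Tables and figures used Python 3.11.15, and the fit was tested on simulated data. No pair of libraries was a near copy.

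Every group has replicates 1 and 2, numbers whose meaning the labels leave unstated. Deviations of same-numbered libraries from their group means correlated at 0.16 to 0.67 over all 15 pairs of groups, so the numbers were taken, from the data and without regard to the calls, to pair the libraries. The fit with the replicate block is given where it changes a call.

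All 10 regulators are named in every library. From each of the 6 lists, the 3 called genes with the largest JQ1 difference over the 3 treatments are named, and up to 3 called for each agonist; 1 gene that this rule names is not reported here. For likeness, the 2 genes with the highest Pearson correlation are named. The regulators, lists and tests were chosen with earlier results of these data known. Alternatives were other pseudocounts (0.1 and 1), no filter, FPKM as deposited, the replicate block, only the compared libraries, each library left out and, added after seeing the data, bases per gene.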

Additional observations from a re-analysis of the deposited data

Results flagged for a closer look

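The effect of PE on Esrrb had opposite signs with and without JQ1 in every library pair, a difference that was not shown by a test. In rescaled FPKM, PE minus vehicle averaged 0.0822 with JQ1 (0.115 for replicate 1 and 0.0498 for replicate 2) and -0.0623 with DMSO (-0.0216 and -0.103). On the log2(rescaled FPKM + 0.5) scale of the fit, the interaction of the 2 effects was 0.11 ± 0.47 (limma, adjusted p = 1, and 0.86 with the block), smaller than its standard error.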

How the results depend on the processing

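No difference called in the fit with or without the block changed sign under any alternative run, for the regulators and list genes named. With the replicate block, regulators called for JQ1 against DMSO numbered 6 with ET-1 (3 without it), 7 with PE (5) and 7 with vehicle (4), and 1 for ET-1 and 1 for PE against vehicle with DMSO, and 2 and 2 with JQ1 (0 without it in each); it changed no call for the mean of the 3 treatments. Bases per gene with the block gave 7, 8 and 7 for JQ1, and 1, 1, 2 and 2 for the agonists in the same order. With only the compared libraries, which leaves few degrees of freedom, JQ1 calls were 1 with ET-1, 4 with PE and 1 with vehicle, and the mean of the 3 treatments was not run. The share of all genes called is not given here for these fits, for bases per gene with the block or for fits with 1 library left out. Whether their counts moved more than those of all genes therefore cannot be read from them. With 1 library left out, calls ranged from 0 to 3 with ET-1, 1 to 3 with PE, 0 to 3 with vehicle and 6 to 8 for the mean (4 to 5, 6 to 7, 4 to 7 and 7 to 8 with the block); for ET-1 and PE against vehicle with the block they ranged from 0 to 1 with DMSO, and from 0 to 3 and 0 to 1 with JQ1.

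Without the rescaling, the median of all genes was -0.11 for ET-1 and -0.13 for PE against vehicle with DMSO (-0.02 and -0.01 after rescaling), and -0.10 and -0.08 with JQ1. For JQ1 over the 3 treatments it was -0.06, and 39.5% of called genes were higher there against 50.3% after rescaling. That share was 31.9% against 47.8% with ET-1 and 31.3% against 47.9% with vehicle; it was 35.3% against 47.6% for PE against vehicle with DMSO, 36.0% against 23.5% for ET-1 with JQ1 and 71.0% against 53.5% for PE with JQ1. Rescaled differences are therefore relative to the median gene, and a shift shared by all genes cannot be seen.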
